A study of Mus musculus with 12 samples.

Results

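Transcripts of 10 genes named for osteoblasts and bone matrix were followed in RNA from cells sorted as bone marrow endothelial cells of mice. The genes, Bglap, Bglap2, Ibsp, Col1a1, Col1a2, Sp7, Runx2, Alpl, Sparc and Mmp13, were taken as a list of symbols and matched to their Ensembl identifiers in a table of 55421 genes. All 10 were found, and 7 of them had enough counts to be tested among 15999 genes. The study asked how cardiovascular disease changes transcription in the endothelium of the hematopoietic niche, and osteoblasts are another cell type of that niche.

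The 12 libraries came from 12 mice, 3 in each of 4 groups, all aged 20 weeks. Controls were naive C57BL/6J mice. Mice with hypertension were C57BL/6J animals given angiotensin II chronically, for which the study's methods describe osmotic minipumps over 8 weeks. Mice with atherosclerosis carried the Apoe(tm1Unc) knockout allele and, in the methods, ate a western-type diet for 10 weeks, so that genotype and diet cannot be told apart. Mice with MI had a permanently ligated coronary artery in the methods. The labels put their cells at 2 days after infarction and the study's text at 4 days. The controls were naive, so that the surgery and the infarction cannot be told apart in the MI group either. The sort kept TER-119- CD41- CD45- CD31hi SCA-1+ cells from flushed and enzymatically digested marrow. Osteoblasts do not carry CD31, so the gate was not set to keep them.

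Osteoblasts build bone in stages. The transcription factors Runx2 and, after it, Sp7 (osterix) commit a mesenchymal cell to the lineage, the cell then lays down a matrix made mostly of collagen I, and alkaline phosphatase (Alpl), bone sialoprotein (Ibsp) and osteocalcin (Bglap and Bglap2) mark its mineralization. Sparc (osteonectin) binds collagen and mineral, and Mmp13 is a collagenase that cuts collagen I and II in growing and remodeled bone. Several of these genes are also used outside bone. Endothelial cells make Sparc, plasmacytoid dendritic cells make Runx2, and fibroblasts and the cells around vessels make collagen I.

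Mouse osteocalcin is encoded by neighboring copies on chromosome 3, and a short read cannot always be given to 1 of them. Bglap and Bglap2 shared 98.6% of 285 coding bases, and Bglap3, the third copy, shared 95.4% with Bglap. A coding stretch of 130 bases from the last exon, on the minus strand of GRCm38, is printed to show how little separates the copies. Capitals in the lines of Bglap2 and Bglap3 mark the 1 and 8 bases that differ from Bglap, and the capital in the line of Bglap marks the base at which it differs from Bglap2. The stretches lie at chr3:88383638-88383767 for Bglap, chr3:88377873-88378002 for Bglap2 and chr3:88368759-88368888 for Bglap3.
Bglap: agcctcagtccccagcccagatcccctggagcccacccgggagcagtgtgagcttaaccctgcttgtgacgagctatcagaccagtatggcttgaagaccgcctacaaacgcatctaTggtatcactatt
Bglap2: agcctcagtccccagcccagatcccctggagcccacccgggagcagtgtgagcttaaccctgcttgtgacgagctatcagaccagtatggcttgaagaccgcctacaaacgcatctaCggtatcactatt
Bglap3: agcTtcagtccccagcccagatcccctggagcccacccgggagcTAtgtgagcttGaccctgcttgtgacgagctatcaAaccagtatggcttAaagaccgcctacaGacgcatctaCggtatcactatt
Of the 391 windows of 50 bases, the length of the reads, in the principal transcript of Bglap, 25.3% occurred in no other gene, and of the 422 windows of Bglap2 11.8% did. Bglap and Bglap2 shared 292 windows. In the other 8 genes, 99.1% to 100% of the windows occurred in no other gene. The counts of Bglap and Bglap2 are therefore uncertain as values of either copy.

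The promoters of Bglap and Mmp13 are printed because in both genes every library of a disease group lay above every control. Each sequence is the 250 bases before the start of the RefSeq transcript in GRCm38.p6, at chr3:88384467-88384716 on the minus strand for Bglap and at chr9:7272264-7272513 on the plus strand for Mmp13. Capitals mark matches to the RUNX core ACCACA (both strands searched), the TATA box TATAAA (given strand) and the AP-1 site TGANTCA (both strands).
Bglap: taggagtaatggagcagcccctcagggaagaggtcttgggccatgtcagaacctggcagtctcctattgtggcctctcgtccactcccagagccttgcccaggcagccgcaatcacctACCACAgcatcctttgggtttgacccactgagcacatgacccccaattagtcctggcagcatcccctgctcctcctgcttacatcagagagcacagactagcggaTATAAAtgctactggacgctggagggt
Mmp13: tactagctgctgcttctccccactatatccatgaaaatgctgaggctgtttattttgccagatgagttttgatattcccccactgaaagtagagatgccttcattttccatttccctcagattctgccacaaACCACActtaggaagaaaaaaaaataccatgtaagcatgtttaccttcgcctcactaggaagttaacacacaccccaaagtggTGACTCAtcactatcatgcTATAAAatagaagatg
In Bglap the RUNX core began 132 bases and the TATA box 27 bases before the start. In Mmp13 the RUNX core began at 118 bases, the AP-1 site at 35 and the TATA box at 16, and no matches overlapped. Of the 10 genes 7 had a promoter entry, among which the RUNX core was matched in 3, the TATA box in 2 and the AP-1 site in 1. Over 32851 promoters of the same length, 14% held the RUNX core, 7.59% the TATA box and 6.75% the AP-1 site. These matches describe the letters and say nothing of binding in these cells. Col1a1, Sp7 and Bglap2 had no entry.

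Total counts were between 17007088 and 25136936 per library. The libraries were led by transcripts of blood-forming cells: the sum of 12 neutrophil genes was 33608 to 99011 CPM (counts scaled to the total of the library, and between libraries by TMM), against 166 to 295 CPM for 17 endothelial genes, all of which were detected in every library. Atherosclerosis replicate 2, MI replicate 2 and atherosclerosis replicate 4 stood apart, being the highest library for 20.0%, 17.5% and 14.4% of all genes tested. Nothing in the labels ties mice of different groups together, and p values measure the spread between single mice, except in the fit with no low-count filter.

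The name osteoblast was only partly borne out by the data. Of the genes that mark committed and mineralizing osteoblasts, Sp7 had 0 to 15 counts per library, Bglap 1 to 21 and Bglap2 0 to 6. Here 3 counts were taken as the smallest amount measured. The counts of Bglap and Bglap2 may be too low, since the copies share much of their sequence. Ibsp, in contrast, had 1064 to 3789 counts in every library. A list of 6 osteocyte genes summed to 0.713 to 3.25 CPM, of which Sost was at 0 in 11 of 12 libraries and Mepe in 10, while Dmp1 and Phex were detected in all 12, Phex at up to 2.98 CPM. A list of 9 cartilage genes summed to 0.445 to 1.93 CPM, of which Acan was at 0 in 11 libraries and Comp was detected in all 12. The 10 genes listed for marrow stromal cells summed to 116 to 352 CPM, led by Cxcl12, which endothelial cells also make, at 77.9 to 269 CPM. All 10 were detected in every library, among them Lepr at 4.16 to 13.6 CPM and Adipoq at 1.95 to 6.85 CPM. The 10 genes under study are therefore called bone matrix genes in the text, by what they encode and not by the cell that made them. In a bulk sample, fewer cells of a type and less RNA per cell cannot be told apart.

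Levels per length of transcript ran over 3 orders of magnitude, down to Bglap2, whose value is uncertain because of shared sequence. Ibsp was the highest, with a median of 44.7 CPM per kilobase of its principal transcript, and exceeded the next gene, Sparc (12.4), in 12 of 12 libraries with no overlap. Runx2 followed at 4.61, Mmp13 at 2.48, Col1a2 at 2.00 and Alpl at 0.987 CPM per kilobase. Bglap stood at 0.419, Col1a1 at 0.302, Sp7 at 0.119 and Bglap2 at 0.0412. Only 25.3% of the windows of Bglap and 11.8% of those of Bglap2 occurred in no other gene. The lengths were not corrected for this, so both values may be too low and the places of Bglap and Bglap2 are uncertain. Below Ibsp the ranges of neighbors overlapped, although Sparc exceeded Runx2 in 11 of 12 libraries, Col1a2 exceeded Alpl in 12 and Col1a1 exceeded Sp7 in 12. Bglap and Col1a1 could not be ordered, since Bglap was higher in 5 of 12. The pair of collagen I chains was thus unequal, with Col1a2 at a higher level per length than Col1a1 in each group's median.

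**Figure D1:**
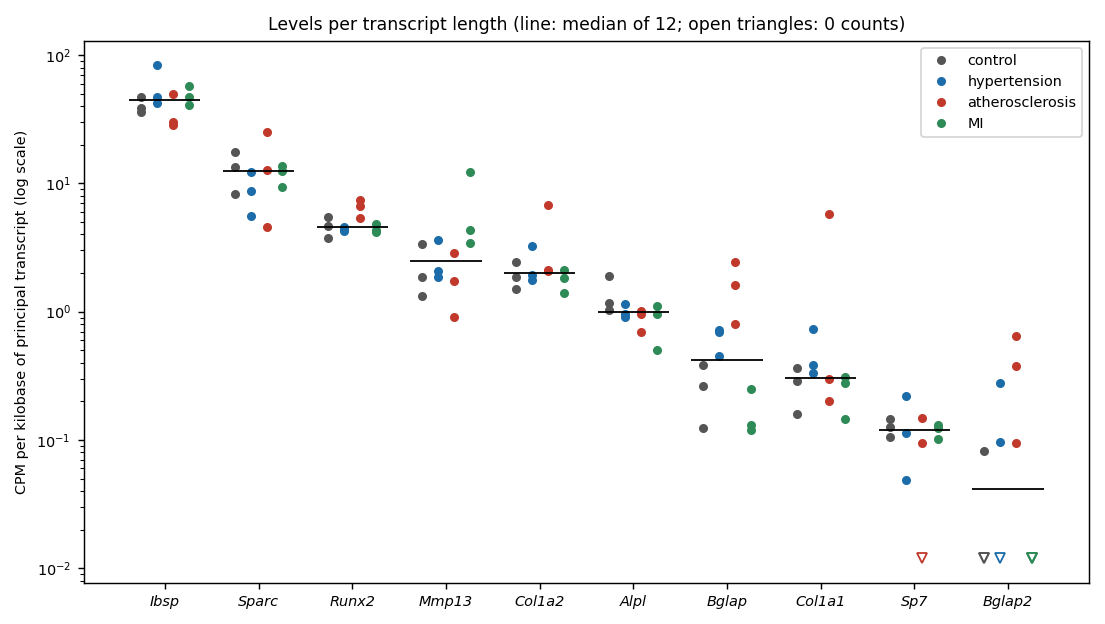
Level of each of the 10 genes in the 12 libraries, in CPM per kilobase of its principal transcript on a log axis, with 1 point per library, a line at the median of the 12 and open triangles for libraries with 0 counts. Ibsp lies above every other gene in every library, from 28.7 to 83.2 CPM per kilobase, and Sp7 and Bglap2 lie at the foot with libraries at 0. Lengths are not corrected for the sequence that Bglap and Bglap2 share.

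Summed over the 10 genes, the level was 163 ± 22.1 CPM in controls (SD, n = 3), 191 ± 58.9 in hypertension, 186 ± 41.0 in atherosclerosis and 185 ± 26.8 in MI. The sums of the groups overlapped, and Ibsp alone made up 25.6% to 66.5% of a library's sum, with a median of 54.1%. The median log2 fold change of the 7 genes tested was 0.20 in hypertension, 0.10 in atherosclerosis and -0.13 in MI, beside -0.01, 0.01 and 0.00 for all genes tested.

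**Figure D2:**
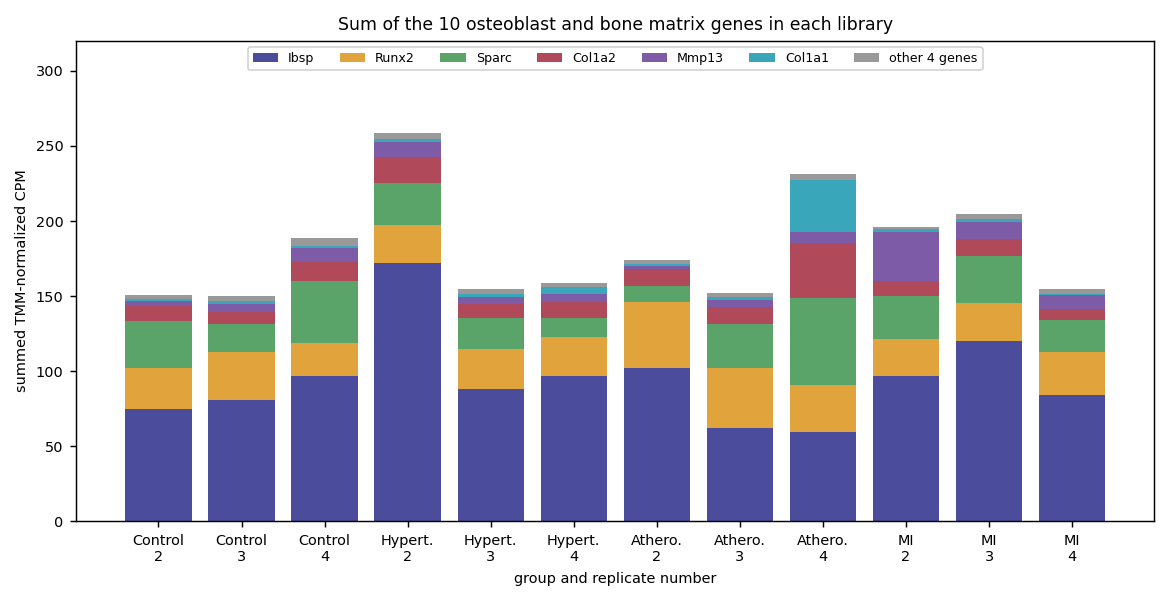
Summed TMM-normalized CPM of the 10 genes in each library as stacked bars from 0, by group and replicate number, with Alpl, Sp7, Bglap and Bglap2 joined as the other 4 genes. The sum runs from 150.2 in control replicate 3 to 258.8 in hypertension replicate 2, where Ibsp is highest, and the collagen I chains and Sparc widen the bar of atherosclerosis replicate 4.

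No bone matrix gene passed the test against controls in any disease group. With edgeR's quasi-likelihood test at a Benjamini-Hochberg adjusted p under 0.05 over all genes tested, 0 of the 10, 7 of which had counts enough to be tested, were called in hypertension, atherosclerosis and MI, as were 0%, 0.144% and 0% of all genes. At an unadjusted p under 0.05 the test gave 0 of the 10 in hypertension (3.71% of all genes), 3 in atherosclerosis (5.97%) and 1 in MI (2.80%). The 3 were Col1a1, Col1a2 and Runx2 and the 1 was Mmp13. The likelihood-ratio test also called 0 of the 10 in each group, beside 0%, 0.506% and 0.00625% of all genes, and DESeq2 called 0 with 0%, 0.39% and 0.00278% of all genes, giving no adjusted p for Col1a1 in any of these groups nor for Bglap2 in atherosclerosis. Over all genes in hypertension, the quasi-likelihood test gave 594 at an unadjusted p under 0.05, and in MI it gave 448. With no low-count filter the quasi-likelihood test called 3 of the 10 in atherosclerosis (Bglap, Col1a1 and Col1a2), where it called 1.2% of all genes, and 1 in MI (Mmp13), where it called 0.361%. The p values of that fit match a normal curve for fold change over SE. They do not weigh a gene's own spread between mice. Here and below, shares of all genes with no low-count filter were taken over 36003 genes, many with few counts. Those of DESeq2 were taken over the genes given an adjusted p, 16427 to 35971 by comparison. Other shares of all genes were taken over the 15999 genes tested.

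**Figure D3:**
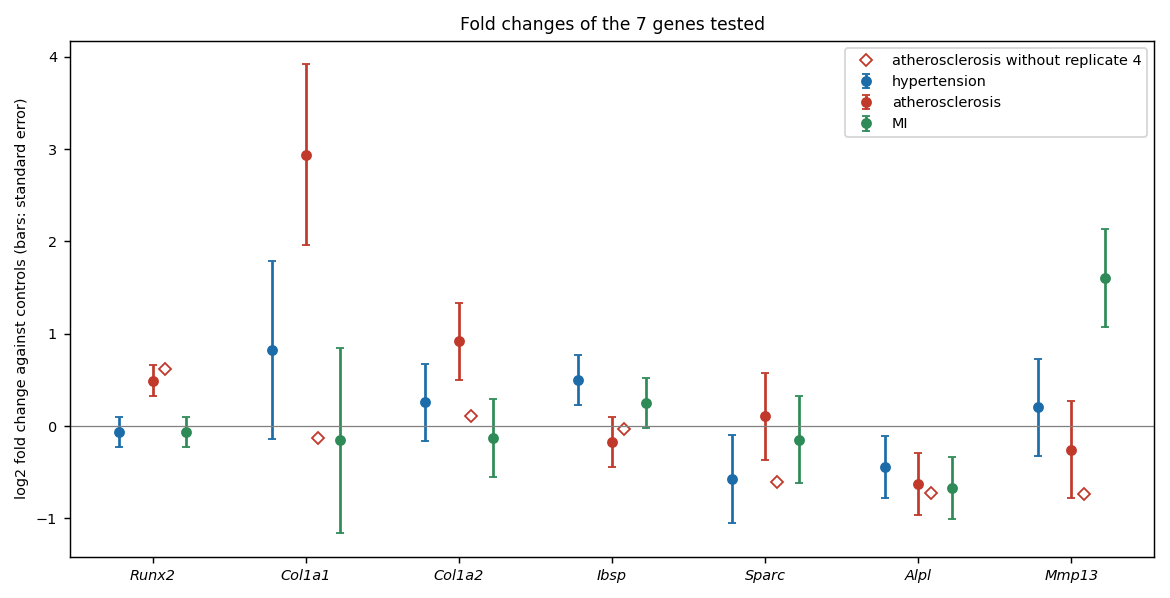
Log2 fold change against controls of the 7 genes tested, with bars of 1 standard error, for hypertension, atherosclerosis and MI (n = 3 mice per group), and open diamonds for atherosclerosis without replicate 4. Col1a1 in atherosclerosis lies at 2.94 with the library and at -0.13 without it, and Mmp13 in MI lies at 1.60.

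Runx2, the factor that starts the lineage, had its highest values in atherosclerosis. It stood at 27.6, 32.3 and 22.1 CPM in control replicates 2, 3 and 4, at 25.3, 26.8 and 26.2 CPM in hypertension and at 24.6, 25.5 and 28.3 CPM in MI. In atherosclerosis it stood at 44.0, 39.6 and 31.5 CPM. The lowest of these lay below the highest control and above every library of hypertension and MI. The log2 fold change was 0.49 (SE 0.17, unadjusted p = 0.0110), with an adjusted p of 0.641 in edgeR's quasi-likelihood test, and stayed between 0.36 and 0.62 when any 1 library was left out. Set directly against the other disease groups, atherosclerosis was higher than hypertension by 0.56 on the log2 scale (SE 0.17, unadjusted p = 0.00521, adjusted p = 0.487) and MI lower than atherosclerosis by a log2 fold change of -0.56 (SE 0.17, unadjusted p = 0.00530, adjusted p = 0.209), in the same quasi-likelihood fit. Plasmacytoid dendritic cells also use Runx2. The sum of 6 of their genes was 259.5, 280.0 and 235.4 CPM in controls, 220.9, 258.6 and 252.8 CPM in hypertension, 351.1, 323.3 and 330.4 CPM in atherosclerosis and 127.4 to 217.7 CPM in MI, with Tcf4 the most abundant at 70.2 to 204 CPM. The mean of this sum was 244 CPM in hypertension and 182 CPM in MI, where the mean of Runx2 was 26.1 CPM in both. Their part in the level of Runx2 was not tested. The genes most like Runx2, chosen after the values were seen, were Pde7b (r = 0.93), Ikzf2, Serpinc1, Zbtb10 and Ttn. None of the 6 dendritic cell genes was among them. Runx2 overlaps the coding gene Supt3 and 3 antisense genes on the other strand, and the sources used here do not say whether the counts were taken by strand.

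Sp7, the factor downstream of Runx2, was close to the floor in all groups. It had 8, 6 and 10 counts in controls, 15, 8 and 3 in hypertension, 0, 5 and 9 in atherosclerosis and 7, 6 and 7 in MI. The ranges overlapped throughout. With exact 95% intervals that cover counting error only, the rate in atherosclerosis was 0.613 times that in controls (0.293 to 1.23), and the rates in hypertension and MI were 1.04 times (0.574 to 1.89) and 0.913 times (0.478 to 1.72). Differences within these bounds were not detectable at this depth.

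Col1a1 encodes the alpha 1 chain of collagen I, of which the fiber holds more than of the alpha 2 chain. It stood at 0.953, 2.17 and 1.71 CPM in controls, at 2.27, 1.97 and 4.36 CPM in hypertension and at 1.82, 1.64 and 0.869 CPM in MI. In atherosclerosis it stood at 1.201, 1.76 and 34.2 CPM, the last being 672 counts in replicate 4. Replicates 2 and 3 of atherosclerosis were within the range of controls, and replicate 4 was far above every other library. The log2 fold change in atherosclerosis was 2.94 (SE 0.98, unadjusted p = 0.0103, quasi-likelihood adjusted p = 0.623) with all libraries and -0.13 without replicate 4. In hypertension it was 0.82 (SE 0.97) and in MI -0.16 (SE 1.01), with 1 estimate of the spread shared by all 12 libraries. DESeq2 gave no adjusted p for this gene.

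Col1a2, the alpha 2 chain, followed the same library. It stood at 9.98, 8.01 and 13.1 CPM in controls, at 17.3, 9.50 and 10.4 CPM in hypertension, at 11.03, 11.4 and 36.6 CPM in atherosclerosis and at 9.72, 11.3 and 7.47 CPM in MI. All groups overlapped the controls. The log2 fold change in atherosclerosis was 0.92 (SE 0.42, unadjusted p = 0.0456, quasi-likelihood adjusted p = 0.831) and 0.11 without replicate 4. Both chains correlated over the 12 libraries with Pearson's r of 0.84 (permutation p = 0.0163, adjusted over 5 pairs of genes 0.0407) and Spearman's rho of 0.36 (permutation p = 0.256, adjusted 0.641). Without the 2 libraries farthest from the median of Col1a1, r was 0.42, and without atherosclerosis replicate 4 alone it was 0.28, so the relation rested on that library. The remaining pairs with Col1a1 gave an r of -0.33 for Ibsp, 0.43 for Sparc and 0.02 for Runx2, with adjusted permutation p of 0.330, 0.303 and 0.943, and rho of -0.08, -0.03 and -0.12, each with an adjusted permutation p of 0.938. Without atherosclerosis replicate 4 the sign of all 3 turned, to an r of 0.26 for Ibsp, -0.23 for Sparc and -0.24 for Runx2. Col1a2 overlaps the unconfirmed gene model Gm43921 on its own strand.

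Genes whose levels were most like those of Col1a1 over the 12 libraries were Cherp (r = 0.98), Crtc2, Prune1, Pygb and Hspa1a (r = 0.92 each). All 5 were also highest in atherosclerosis replicate 4, where the stress-induced chaperone gene Hspa1a stood at 13.04 CPM against a median of 0.493. For Col1a2, chosen after the values were seen, the most similar genes were Smyd5 (r = 0.92), Abce1, Cdyl, Carm1 and Ak3, and these too were all highest in that library. Among 28 tested genes of collagen I synthesis and cross-linking, the list that holds its chaperones, hydroxylases and cross-linking enzymes, 9 were highest in atherosclerosis replicate 4, as were 14.4% of all genes tested, 7 of 17 endothelial genes and 7 of 16 matrix proteases and inhibitors.

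Ibsp, bone sialoprotein, was abundant in every library. It stood at 74.9, 80.5 and 96.9 CPM in controls, at 172, 88.2 and 96.8 CPM in hypertension, at 102, 62.5 and 59.3 CPM in atherosclerosis and at 96.7, 119.8 and 84.3 CPM in MI. Hypertension replicate 2 was far above the other 11 libraries, and every group overlapped the controls. The log2 fold change in hypertension was 0.50 (SE 0.27, unadjusted p = 0.0860, quasi-likelihood adjusted p = 0.951) and 0.14 without that replicate. In atherosclerosis it was -0.17 (SE 0.27) and in MI 0.25 (SE 0.27). Atherosclerosis against hypertension gave its widest contrast, a log2 fold change of -0.67 (SE 0.27, unadjusted p = 0.0270, adjusted p = 0.793 in the same test). The genes most like Ibsp, chosen after the values were seen, were Mfsd8 and Trip13 (r = 0.93 each), Ptges, Micu2 and Keap1, all highest in hypertension replicate 2. The 10 bone matrix genes were left out of this search, and no other listed bone gene and no listed stromal gene was among those named. The sum of the 10 stromal genes was nevertheless also highest in hypertension replicate 2, at 352 CPM against 116 to 316 CPM elsewhere. Lepr, Cxcl12, Kitl, Adipoq, Pdgfra, Foxc1 and Il7 peaked there, as did 4.49% of all genes tested. Pdgfrb, Ebf3 and Angpt1 peaked in other libraries. In atherosclerosis replicate 4, where the collagen I chains and Sparc were highest, Ibsp was lowest of all libraries.

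Bglap, osteocalcin, was low in every library and highest in atherosclerosis. It had 3, 1 and 3 counts in controls, which is 0.168, 0.0541 and 0.116 CPM, and 7, 7 and 4 counts in hypertension, which is 0.318, 0.307 and 0.200 CPM. In atherosclerosis it had 8, 12 and 21 counts (0.356, 0.705 and 1.07 CPM), and in MI 2, 1 and 1 counts (0.110, 0.0529 and 0.0579 CPM). Every library of atherosclerosis lay above every library of hypertension, and every library of hypertension lay above every control and every MI library. The nearest hypertension and control libraries had 4 and 3 counts, and controls and MI overlapped. Too few counts kept the gene out of the main test. From the summed counts, with exact 95% intervals for counting error only, the rate in atherosclerosis was 6.15 times that in controls (2.73 to 16.3), that in hypertension 2.47 times (0.984 to 6.997) and that in MI 0.626 times (0.134 to 2.46). With no low-count filter, edgeR's quasi-likelihood test gave a log2 fold change of 2.57 (SE 0.74) and an adjusted p of 0.0428 in atherosclerosis, and an adjusted p of 0.925 in hypertension and 1 in MI. DESeq2 gave an adjusted p of 0.242 in atherosclerosis. Unfiltered, MI lay below atherosclerosis with a log2 fold change of -3.17 (SE 0.81) and an adjusted p of 0.00687. These unfiltered p values do not weigh the spread of Bglap between mice.

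Bglap2 had still fewer counts. It had 0, 0 and 1 counts in controls, 1, 3 and 0 in hypertension, 1, 3 and 6 in atherosclerosis and 0 in each library of MI. In MI a count of 0 allowed a level of up to 0.152 to 0.176 CPM, which is 3 counts of each library before TMM scaling. The rate in atherosclerosis was 10.5 times that in controls with an exact interval of 1.49 to 456, which rests on 1 control count. The copies correlated over the 12 libraries with an r of 0.90 (permutation p = 0.00014, adjusted 0.0007) and a rho of 0.85 (permutation p = 0.00093, adjusted 0.00465). Without the 2 farthest libraries r was 0.69, and the r of deviations from the group means was 0.75. GeneCounts leaves out reads that map to several places, and the part of the sequence shared by the copies in this correlation was not tested. Bglap3 ran otherwise, with 3 to 7 counts in a control library and 8 to 12 in one from hypertension but 4 to 5 in those of both other groups. Its rate in atherosclerosis was 0.853 times that in controls (0.378 to 1.89).

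Macrophage genes moved with Bglap. A list of 11 of them, led by C1qc at 129 to 279 CPM, summed to 412 ± 31.0 CPM in controls, 509 ± 110 in hypertension, 710 ± 85.4 in atherosclerosis and 428 ± 60.5 in MI (SD, n = 3 each). Of the 11, 2 rose in atherosclerosis by edgeR's quasi-likelihood test, and these are named after their values were seen. C1qa, a chain of complement C1q, rose by 0.97 on the log2 scale (SE 0.16, adjusted p = 0.0342) and Cd5l, a secreted macrophage protein, by 2.22 (SE 0.32, adjusted p = 0.0191). Over the 12 libraries log2 Bglap correlated with this sum at an r of 0.85 and within groups at 0.37. The part of macrophage RNA in the Bglap counts was not tested. The genes most like Bglap were Prokr1 (r = 0.96), Tmem64 (0.95), Cyth3 (0.91), Sdc3 (0.91) and Slc45a3 (0.91).

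Alpl, the phosphatase that frees phosphate for mineral, was lower in every disease group on average. It stood at 2.58, 2.92 and 4.81 CPM in controls and at 2.40, 1.76 and 2.55 CPM in atherosclerosis, where every library lay below every control. It stood at 2.91, 2.41 and 2.30 CPM in hypertension and at 1.27, 2.80 and 2.43 CPM in MI, and both of these groups overlapped the controls. The log2 fold changes were -0.62 (SE 0.34, unadjusted p = 0.0864) in atherosclerosis, -0.67 (SE 0.34, unadjusted p = 0.0688) in MI and -0.44 (SE 0.33, unadjusted p = 0.206) in hypertension, with quasi-likelihood adjusted p of 0.860, 1.00 and 0.951. The highest control weighed on all 3 of these. Without control replicate 4 they were -0.29, -0.34 and -0.11. The genes most like Alpl, chosen after the values were seen, were Btbd10 and Trip4 (r = 0.90 each), Bcar3, Ifit1bl1 and Gnpat, all highest in that library.

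Sparc, which endothelial cells make, differed widely between mice. It stood at 30.9, 19.0 and 40.8 CPM in controls, at 28.2, 20.1 and 12.7 CPM in hypertension, at 10.6, 29.2 and 57.8 CPM in atherosclerosis and at 29.0, 31.5 and 21.4 CPM in MI. Both the lowest and the highest of the 12 libraries were atherosclerosis libraries. The log2 fold changes were -0.57 (SE 0.47) in hypertension, 0.10 (SE 0.47) in atherosclerosis and -0.15 (SE 0.47) in MI, none with an unadjusted p under 0.05, and the one in atherosclerosis was -0.61 without replicate 4. The genes most like Sparc, chosen after the values were seen, were Mpp1, Gmppb and Ptov1 (r = 0.96 each) and Plvap and Igfbp7 (r = 0.95 each). Plvap encodes a protein of the diaphragms of fenestrated endothelium and Igfbp7 is abundant in vessels. Of these 5 genes only Plvap is on the endothelial list, so its likeness and the relation with the endothelial sum share that gene. With the sum of 17 endothelial genes, of which Plvap was the most abundant, Sparc correlated at an r of 0.73 and a rho of 0.73 over the 12 libraries. Atherosclerosis replicate 2 stood apart from this relation, with the lowest Sparc and an endothelial sum of 220.0 CPM, inside the range of the controls.

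The relations of 4 bone matrix genes with a marker sum were computed after the values were seen, and their permutation p were adjusted over these 4. Sparc with endothelial genes gave adjusted p of 0.0142 (r) and 0.0132 (rho), an r of 0.92 without the 2 farthest libraries, of 0.60 without atherosclerosis replicate 4 and of 0.72 within groups. For Runx2 with plasmacytoid dendritic cell genes r was 0.71 (adjusted p = 0.0142) and rho 0.80 (adjusted p = 0.00920), r was 0.58 without the 2 farthest libraries and 0.47 within groups. The relation of Bglap with macrophage genes gave adjusted p of 0.00168 (r) and 0.0132 (rho of 0.73), and an r of 0.76 without the 2 farthest libraries. Mmp13 with neutrophil genes gave an r of 0.56 and a rho of 0.36 (adjusted p of 0.0549 and 0.257), and r was -0.07 without the 2 farthest libraries. These libraries share depth, scaling and group differences, and the correlations are descriptions.

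**Figure D4:**
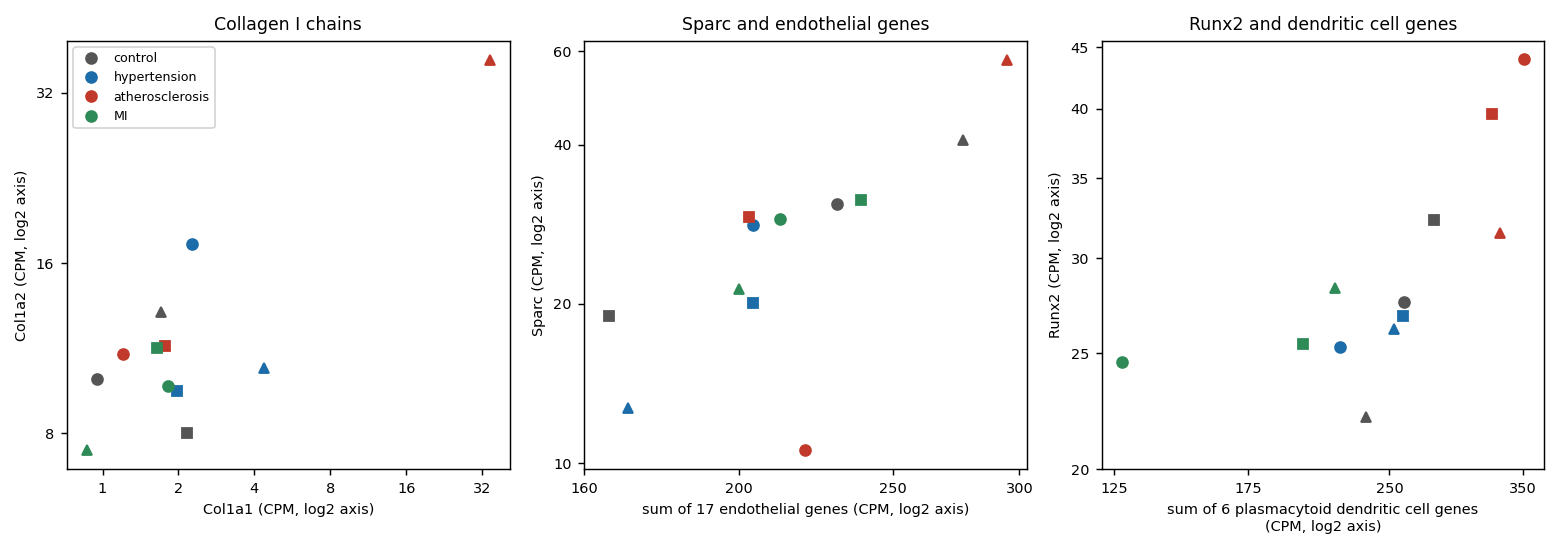
Level of Col1a2 against Col1a1, of Sparc against the sum of 17 endothelial genes, and of Runx2 against the sum of 6 plasmacytoid dendritic cell genes, in CPM on log2 axes, with 1 point per library colored by group (circles, squares and triangles are replicates 2, 3 and 4). Atherosclerosis replicate 4 stands alone in the first panel, at 34.2 and 36.6 CPM, Sparc climbs with the endothelial sum apart from atherosclerosis replicate 2, and the atherosclerosis libraries lie at the upper right for Runx2.

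Mmp13, the collagenase, was highest after MI. It stood at 3.53, 4.98 and 8.96 CPM in controls and at 32.7, 11.5 and 9.21 CPM in MI, so that every MI library lay above every control, the nearest by 9.21 against 8.96 CPM. It stood at 9.72, 4.95 and 5.56 CPM in hypertension and at 2.45, 4.64 and 7.69 CPM in atherosclerosis, and both overlapped the controls. The log2 fold change in MI was 1.60 (SE 0.53, unadjusted p = 0.00929, quasi-likelihood adjusted p = 1.00) and 0.82 without MI replicate 2. The direct contrast was wider, and MI lay above atherosclerosis by 1.86 on the log2 scale (SE 0.53, unadjusted p = 0.00400). Its adjusted p was 0.184 by edgeR's quasi-likelihood test, 0.0414 by the likelihood-ratio test and 0.0158 by DESeq2, in a comparison in which the quasi-likelihood test called 0.269%, the likelihood-ratio test 1.71% and DESeq2 1.79% of all genes. Against hypertension the log2 fold change was 1.40 (SE 0.52, unadjusted p = 0.0186, adjusted p = 0.578). The genes most like Mmp13, chosen after the values were seen, were Slc37a4, Bod1, Borcs5, Sirpb1c and Kmt5c (r = 0.89 to 0.92), all highest in MI replicate 2. Neutrophil genes, led by Ngp, summed to 99011, 77912 and 64116 CPM in MI and to 81385, 63028 and 58564 CPM in controls, and their part in the level of Mmp13 was not tested.

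**Figure D5:**
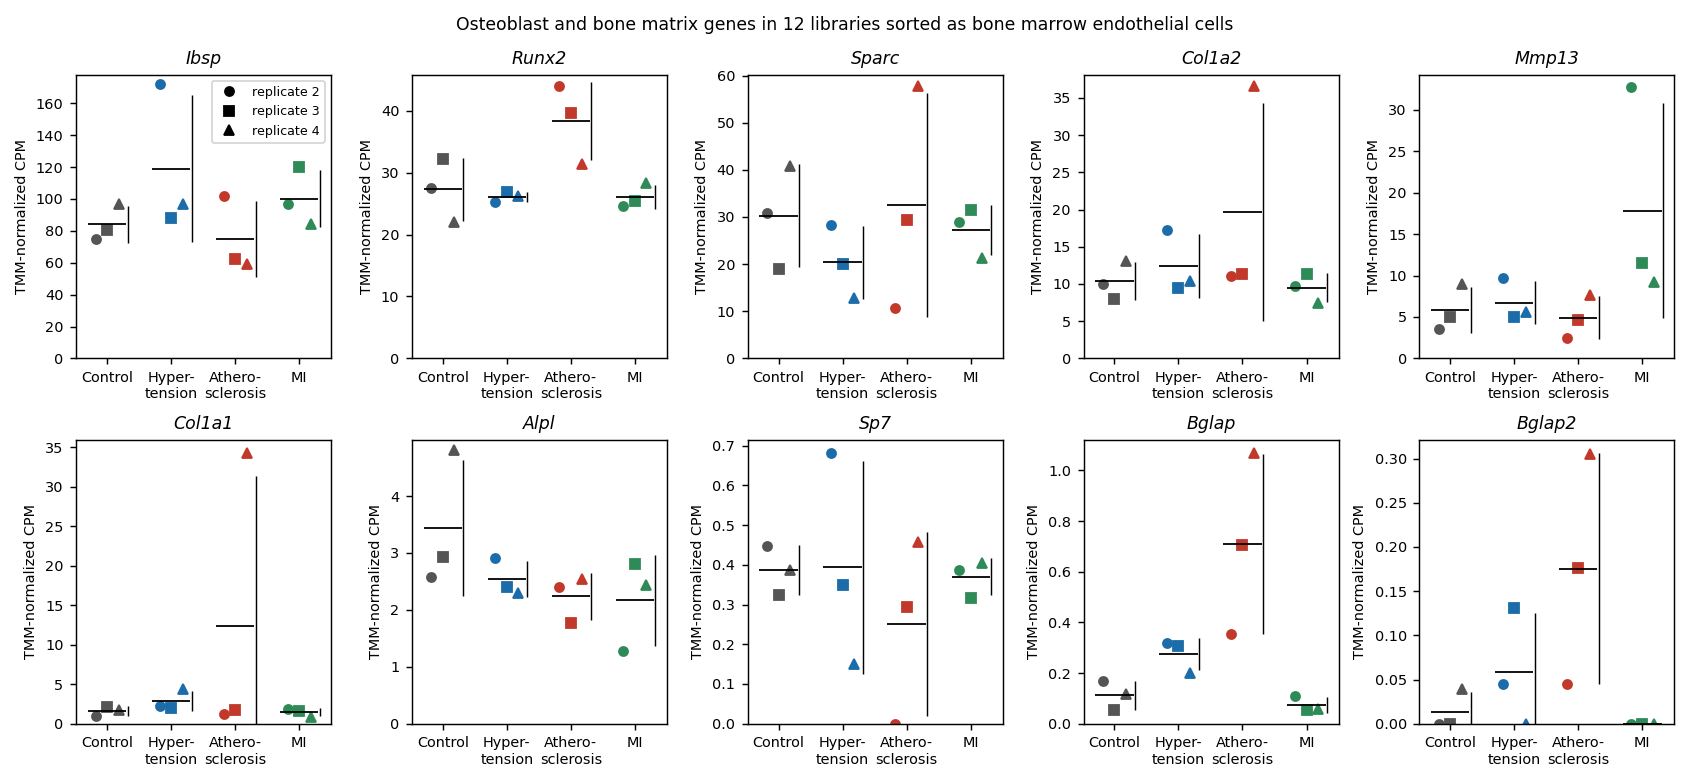
TMM-normalized CPM of each of the 10 genes by group, with 1 point per library (circles, squares and triangles are replicates 2, 3 and 4), a horizontal line at the mean of 3 and a vertical line of 1 SD to each side, drawn no lower than 0. The vertical axes start at 0 and differ between genes. Col1a1 has 1 library at 34.2 CPM, Mmp13 has all MI libraries above the controls, and Bglap reaches 0.168 CPM in controls and 1.07 CPM in atherosclerosis.

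Read by overlap, the 10 genes held 1 gene, Bglap, with every hypertension library above every control, as 9.02% of all genes tested did, although Bglap was itself below the low-count filter. In atherosclerosis Bglap lay above the controls (5.06% of all genes) and Alpl lay below (4.45%), and in MI Mmp13 lay above (4.27%). Bglap2 is left out here, since libraries with 0 or 1 count of it cannot be ordered under a floor of 3 counts. Bglap too was at or under that floor in controls (1 to 3 counts) and MI (1 to 2). It had at least 4 counts in each library of hypertension and atherosclerosis, so its places rest on few counts. An exact permutation test of 3 against 3 libraries cannot give a p below 0.1, which Bglap, Alpl and Mmp13 reached against controls. Between disease groups, Mmp13 lay above (6.23%) and Bglap and Runx2 lay below (7.44%) in MI against atherosclerosis. Bglap and Col1a1 lay below in MI against hypertension (10.2%), and Bglap and Runx2 lay above in atherosclerosis against hypertension (5.81%).

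In the direct contrasts of MI with atherosclerosis, MI with hypertension and atherosclerosis with hypertension, the quasi-likelihood test called 0 of the 10 genes, beside 0.269%, 0% and 0.0625% of all genes. At an unadjusted p under 0.05 it gave 4, 1 and 3 of the 10, beside 12.7%, 8.41% and 5.94% of all genes. With no low-count filter it called 4, 1 and 1 of the 10, beside 2.19%, 1.17% and 0.653% of all genes. The test of any difference among the 4 groups called 0 of the 10 and 0.144% of all genes. For that question the likelihood-ratio test called Col1a1 and Mmp13, beside 1.46% of all genes, and DESeq2 called Bglap and Mmp13, beside 1.35%. The quasi-likelihood test with no low-count filter called Bglap, Col1a1, Col1a2 and Mmp13, beside 2.75% of all genes.

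No gene of the 4 surrounding pathway lists passed the quasi-likelihood test against controls. Of 21 regulators and receptors of osteoblasts, such as the BMP and Wnt receptors and their ligands, 15 were tested and 0 were called against controls in any group, with medians of -0.05, 0.12 and -0.03 on the log2 scale in hypertension, atherosclerosis and MI. The 3 with the smallest p for any difference were Bmp2, a bone-inducing ligand, at 0.92 to 4.71 CPM and with an adjusted p of 0.622, Tcf7 (0.748) and Bmpr1a (0.777), all by the quasi-likelihood test. At an unadjusted p under 0.05 none of the 15 passed against controls. The most abundant was Cbfb, the partner of Runx2, at 94.6 to 135 CPM.

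Of 29 genes of collagen I synthesis and cross-linking, 28 were tested, 0 were called and 0 had an unadjusted p under 0.05, with medians of -0.10, 0.01 and -0.09. The 3 with the smallest p were Plod2, a lysyl hydroxylase, with log2 fold changes of -0.19, 0.67 and -0.66 in hypertension, atherosclerosis and MI and an adjusted p of 0.567, P4ha1, a prolyl hydroxylase (0.702), and Bmp1, the propeptidase (0.730), by the quasi-likelihood test. P4hb was the most abundant at 275 to 779 CPM.

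Of 23 other bone matrix and mineralization genes, 18 were tested and 0 were called, with medians of 0.29, 0.21 and 0.07, and 1, 3 and 1 had an unadjusted p under 0.05. Spp1, osteopontin, which macrophages also make, ranged from 14.0 to 108 CPM and had log2 fold changes of -0.36 (SE 0.38), -1.09 (SE 0.39) and 0.60 (SE 0.38), with an adjusted p of 0.373 for any difference by the quasi-likelihood test. Ank, a pyrophosphate transporter (adjusted p = 0.572), and Col5a1, a fibrillar collagen chain (adjusted p = 0.649), came next. Fn1 was the most abundant at 130 to 525 CPM.

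Of 18 matrix proteases and inhibitors, 16 were tested and 0 were called, with medians of -0.14, -0.10 and -0.07, and 0, 2 and 0 had an unadjusted p under 0.05. The 3 with the smallest p were Adamts5, an aggrecanase (adjusted p = 0.682), Timp1, an inhibitor of metalloproteinases at 0 to 0.994 CPM (0.736), and Mmp19 (0.759), by the quasi-likelihood test. Mmp8, the collagenase of neutrophils, was the most abundant at 565 to 969 CPM, far above Mmp13.

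Apart from the 2 macrophage genes named, no gene of the lists of other cell types was called against controls by the quasi-likelihood test. Osteoclast genes (6 of 10 tested) summed to 257 to 545 CPM, led by Acp5 at 76.5 to 221 CPM. Smooth muscle and pericyte genes (4 of 7 tested) summed to 10.7 to 24.6 CPM, led by Acta2 at 6.11 to 19.2 CPM. Among osteocyte genes Dmp1 was the most abundant at 0.0509 to 1.75 CPM, and among cartilage genes Comp at 0.182 to 0.773 CPM. Erythroid genes, led by Hbb-bs, summed to 7305 to 24313 CPM, megakaryocyte and platelet genes, led by Ppbp, to 338 to 1616 CPM, and B lineage genes, led by Ebf1, to 209 to 1140 CPM. In MI, 6 of 9 B lineage genes and 3 of 6 plasmacytoid dendritic cell genes had a negative log2 fold change with an unadjusted p under 0.05, beside 2.80% of all genes in either direction, and 0 of them were called. In atherosclerosis, 9 of 11 macrophage genes had a positive one, beside 5.97%, and 2 were called. Phex, an osteocyte peptidase, had a log2 fold change of 1.97 in atherosclerosis (SE 0.71, unadjusted p = 0.0155, adjusted p = 0.691 by the quasi-likelihood test). Dmp1, the other osteocyte gene tested, went the other way, at -0.51 (SE 0.81). Phex was highest in atherosclerosis replicate 2. In atherosclerosis replicate 4 the osteocyte sum was 0.713 CPM, below the controls at 0.841 to 1.09 CPM.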

How the data were processed

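Single-end reads of 50 bases from strand-specific libraries of polyadenylated RNA were aligned by the authors to GRCm38.p6 with STAR 2.7.3a (submitters' processing notes), and the deposited values are raw counts per gene from its GeneCounts option with Ensembl release 98. Which strand column was taken is not given in the sources used here. Normalization is not included in these counts. All 12 columns were matched to mice by title.

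Here, symbols and positions came from GENCODE M21 (55240 of 55421 genes). In R 4.3.3, edgeR 4.0.16 was run with filterByExpr, TMM and 1 coefficient per group over 12 libraries (8 residual degrees of freedom, common dispersion 0.0634), with two-sided glmQLFTest and Benjamini-Hochberg adjustment over 15999 genes (99.9% of counts). The study's own test, the likelihood-ratio test, was an alternative, as were DESeq2 1.42.0, RLE scaling, other filters, the replicate block, an adjusted p under 0.1 and leaving out each library. The standard error of a log2 fold change is its ratio to the root of its F statistic. CPM per kilobase used the principal transcript. Correlations used log2 CPM (prior count 2) and 100000 permutations, two-sided. The fit was tested on simulated data.

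The 10 genes and all lists were chosen with earlier results of these data known. Named genes are the 10, the 3 of each of 4 pathway lists with the smallest p for any difference, the most abundant of each marker list, Bglap3, and the 5 genes most correlated with Col1a1 and Bglap. Named after their values were seen were Sost, Mepe, Phex, Acan, C1qa and Cd5l, and all of the stromal genes but Cxcl12. So were the 5 genes most correlated with each of Col1a2, Ibsp, Runx2, Alpl, Sparc and Mmp13. The 10 genes themselves were left out of every search for the most correlated genes. 1 erythroid gene of the lists was not analysed here. The libraries hold 17007088 to 25136936 counts, and 3 counts were taken as the floor. Exact 95% intervals of ratios and floors cover counting error only. Promoters are from RefSeq (GRCm38.p6).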

Additional observations from a re-analysis of the deposited data

Results flagged for a closer look

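Bglap and Bglap2 were singled out because the libraries of some disease groups all lay above the mean of the controls and those of another all lay below it. The mean of Bglap was 0.275 CPM in hypertension, 0.710 CPM in atherosclerosis and 0.0738 CPM in MI, against 0.113 CPM in controls. The mean of Bglap2 was 0.175 CPM in atherosclerosis and 0 CPM in MI, against 0.0129 CPM in controls. The control mean of Bglap2 rests on 1 count, and a count of 0 in MI allows up to 0.152 to 0.176 CPM before TMM scaling. Bglap2 was therefore not shown to be lower in MI than in controls. Bglap had 1 to 2 counts in each MI library, also under the floor of 3 counts, so the same holds for it. These differences between disease groups were not tested with the low-count filter, because both genes had too few counts. With no low-count filter, edgeR's quasi-likelihood test gave an adjusted p of 0.00687 for Bglap and 0.191 for Bglap2 in MI against atherosclerosis, and DESeq2 gave NA for both. The unfiltered p values do not weigh each gene's own spread between mice. Much of the sequence of the copies is shared, and its part in these values was not tested.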

How the results depend on the processing

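Counts of called bone matrix genes depended on the filter and the tool. With no filter beyond 1 count in total, the quasi-likelihood test called 3 of the 10 in atherosclerosis against controls (Bglap, Col1a1 and Col1a2), 1 in MI against controls and 1 in MI against hypertension (Mmp13), 4 in MI against atherosclerosis (Bglap, Col1a1, Col1a2 and Mmp13), 1 in atherosclerosis against hypertension (Col1a1) and 4 for any difference, where it called 0 each with the filter. The SE of Col1a1 in atherosclerosis was 0.34 there and 0.98 with the filter. That of Sparc was 0.21 and 0.47 and that of Mmp13 0.27 and 0.53, while that of Runx2 was 0.21 and 0.17. The unfiltered p values match a normal curve for fold change over SE, so these calls do not weigh a gene's own spread between mice. The likelihood-ratio test called 1 in MI against atherosclerosis (Mmp13) and 2 for any difference (Col1a1 and Mmp13), and DESeq2 called 1 (Mmp13) and 2 (Bglap and Mmp13). Leaving out 1 library gave 0 to 1 in MI against atherosclerosis, the 1 being Bglap without atherosclerosis replicate 2. The 47 other counts with a library left out and the 52 others under the remaining alternatives stayed at 0.

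With 1 library left out, 111 log2 fold changes of the 7 genes kept their sign and 15 changed it. The ranges were -0.0615 to 0.47 for Col1a2, -0.19 to 0.0697 for Runx2 and -0.16 to 0.67 for Mmp13 in hypertension, -0.13 to 3.49 for Col1a1, -0.61 to 0.53 for Sparc and -0.74 to 0.22 for Mmp13 in atherosclerosis, and -0.41 to 0.10 for Col1a1, -0.29 to 0.0851 for Col1a2, -0.19 to 0.0701 for Runx2 and -0.40 to 0.14 for Sparc in MI. The labels do not say that replicate numbers pair the mice. Of 18 same-numbered pairs of libraries, 5 had deviations correlated over 0.1 (-0.28 to 0.30), and different-numbered pairs ran from -0.30 to 0.39. With 3 mice per group these correlations cannot decide whether some mice were paired. With the replicate block the count of calls among the 10 was unchanged, and the log2 fold change of Col1a1 in MI was 0.0446. The log2 ratio of the summed level to controls was 0.22 in hypertension and -0.0598 without hypertension replicate 2, and 0.19 in atherosclerosis and -0.0023 without atherosclerosis replicate 4, and kept its sign under the other alternatives. The 5 correlations (r) kept theirs under the other scaling and prior count, but r of Col1a1 with Ibsp, Sparc and Runx2 turned sign without atherosclerosis replicate 4. Depth limits Bglap, Bglap2 and Sp7, of which 3 counts were 0.119 to 0.176 CPM before TMM scaling.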
